A study of Homo sapiens with 9 samples.

Results

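The long arm of chromosome 21 (21q) was described through its expressed protein-coding genes, in 3 lines of the colon cancer cell line SW480. Members were chosen by their measured values in all 9 libraries, as the protein-coding genes of the arm on the GRCh37 build with at least 1 CPM (a gene's count scaled to the library's total on genes) in 3 or more libraries, and RUNX1, TFF1 to TFF3, MX1, MX2, PFKL and the collagen and claudin genes were left out by name. The choice kept 113 of 210 protein-coding genes of the arm, after 13 more had been left out by name, among 63677 gene identifiers in the tables. At 1 CPM or more, 12 members were present in 3 to 8 libraries and the rest in all 9. All 113 members reached that level in at least 1 SW480 library, 109 in at least 1 SW480-B library and 108 in at least 1 SW480-gRNA-B-all library.

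The study used RNA-seq to ask what follows when BASP1, a membrane-attached and nuclear protein that acts as a transcriptional corepressor, is switched back on in colon cancer cells. SW480 is an established line from a colorectal adenocarcinoma, labelled as hypotriploid, and its parental cells were the control. The treatment label reads BASP1 activation for every library, those of SW480 included, so the lines were taken from title and genotype. SW480-B carried a BASP1 cDNA behind a CMV promoter under G418 selection and is the progeny of a single cell. SW480-gRNA-B-all carried the activators MS2-P65-HSF1 (hygromycin) and dCas9-VP64 with GFP, was cloned from a single GFP-positive cell, and then received a pool of guide RNAs against the BASP1 promoter (puromycin). The SW480 control carried none of these vectors and was not cloned, so the effects of BASP1, of the vectors and drugs, and of the cell that founded each clone cannot be told apart. Each line had 3 libraries with 25238831 to 29355669 counts on genes, and a count of 0 allows up to 0.102 to 0.119 CPM (3 counts), for counting error only. The paper states that total RNA was isolated in triplicate. Neither that statement nor the labels say that the 3 libraries of a line came from separate cultures. The p-values thus measure the spread between these libraries, which may be technical.

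Chromosome 21 is among the autosomes with the fewest genes, and an additional copy of it causes Down syndrome, in which most of its genes are transcribed above the usual level. Its long arm holds genes of unrelated function side by side, among them the amyloid precursor gene APP, the antioxidant enzyme SOD1, a cluster of interferon and cytokine receptor subunits, the kinase DYRK1A and several RNA processing and ubiquitin pathway proteins. The RNA output of an arm follows both the number of its copies in a cell and the regulation of its genes, and no DNA copy number was analysed here.

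BASP1 stood at 11.9, 8.03 and 0.691 CPM in SW480, 268, 268 and 250.3 CPM in SW480-B and 167, 303 and 300.1 CPM in SW480-gRNA-B-all, so the labels of the lines held in every library, although SW480 libraries 1 and 2 were above library 3. Summed over 9 colon epithelial markers, the level was 8315, 9527 and 10970.4 CPM in SW480, 6992, 11356 and 8563 CPM in SW480-B and 6331, 7804 and 7767 CPM in SW480-gRNA-B-all. Of these markers, 7 were at 1 CPM or more in all 9 libraries, and LGALS4 and CDX1 stayed under 1 CPM in each. The most abundant of them, KRT8, stood at 4768, 4724 and 5286 CPM in SW480, 3874, 6210.5 and 4488 CPM in SW480-B and 3547, 4308 and 4299 CPM in SW480-gRNA-B-all. CDX2, a homeobox factor of the intestine, stood at 30.4, 30.7 and 41.9 CPM in SW480, 58.6, 67.4 and 58.2 CPM in SW480-B and 5.52, 2.70 and 2.37 CPM in SW480-gRNA-B-all, with all SW480-gRNA-B-all libraries below the rest (edgeR quasi-likelihood test, Benjamini-Hochberg adjusted p = 0.00896 against SW480 and 0.000995 against SW480-B). KRT19 stood at 745, 906 and 1446 CPM in SW480, 788, 1130.2 and 1102 CPM in SW480-B and 548, 510.1 and 522 CPM in SW480-gRNA-B-all, also with SW480-gRNA-B-all below the 6 others (adjusted p = 0.0725 and 0.025 by the same edgeR test). For CDH1 SW480-gRNA-B-all was below SW480-B and overlapped SW480 (adjusted p = 0.239 against SW480 and 0.0196 against SW480-B by the same edgeR test). VIL1, a protein of the brush border, stood at 344, 308 and 98.7 CPM in SW480, 29.6, 35.9 and 30.2 CPM in SW480-B and 21.5, 6.81 and 6.34 CPM in SW480-gRNA-B-all, with SW480 above every library of both BASP1 lines (edgeR quasi-likelihood test, Benjamini-Hochberg adjusted p = 0.0188 for SW480-gRNA-B-all and 0.0255 for SW480-B, each against SW480). The call for SW480-B was lost without SW480-B replicate 1 or 2, where edgeR called 0 of all 16646 and 16810 genes. For SW480-gRNA-B-all against SW480, edgeR called 8 of all 16508 genes without SW480 replicate 2. Without SW480-gRNA-B-all replicate 1, 2 or 3 it called 178, 78 and 76 genes. Whether the CDX2 and VIL1 calls against SW480 held in these fits is not given here. EPCAM stood at 751, 578 and 460.2 CPM in SW480, 281, 292 and 331 CPM in SW480-B and 434, 348 and 340.4 CPM in SW480-gRNA-B-all, with SW480 the highest line and no call by that test. No marker of leukocytes, endothelium or fibroblasts was at 1 CPM in all 9 libraries. Summed over PTPRC, CD3E and CD14 the leukocyte level was 0.414, 0.758 and 2.00 CPM in SW480, 0.966, 0.57 and 1.66 CPM in SW480-B and 0.779, 2.67 and 2.47 CPM in SW480-gRNA-B-all, with CD14 the largest share in SW480-gRNA-B-all and CD3E in SW480-B libraries 1 and 3. VWF and CDH5 together gave 0.689, 0.965 and 0.873 CPM in SW480, 3.02, 2.74 and 1.38 CPM in SW480-B and 4.34, 1.70 and 1.97 CPM in SW480-gRNA-B-all, nearly all of it VWF, CDH5 was at 0 in 7 libraries, and PECAM1 was not analysed here. Of the fibroblast markers DCN, LUM and PDGFRA, LUM alone passed 1 CPM, at 6.48, 2.10 and 0.982 CPM in SW480, 0, 0.0356 and 0 CPM in SW480-B and 0, 0 and 0 CPM in SW480-gRNA-B-all. The summed fibroblast level was 6.61, 2.27 and 1.02 CPM in SW480, 0.116, 0.0356 and 0 CPM in SW480-B and 0.102, 0 and 0.0334 CPM in SW480-gRNA-B-all. The part of VIL1, CDX2, KRT19, CDH1, EPCAM, CD14, VWF and LUM in the results below was not tested.

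Libraries of one line differed among themselves. SW480 libraries 1 and 3 differed by more than 2-fold in 21.3% of genes with 20 counts or more, SW480 libraries 1 and 2 in 11.8%, and SW480 libraries 2 and 3 in 7.46%. SW480-gRNA-B-all libraries 2 and 3 were much closer to each other than any other pair. Their median chi-square per gene was 0.882 against 0.455 from counting error alone, where the next lowest pair gave 9.24. They differed by more than sampling noise and were kept as 2 libraries, but they may be technical replicates, and the SD of that line would then rest on fewer samples. The edgeR calls of SW480-gRNA-B-all against each other line are therefore also given with the pair summed.

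The arm as a whole was lowest in the 3 libraries of SW480-gRNA-B-all, and the SW480 and SW480-B libraries overlapped. For each library, the arm value is the median over the 113 members of log2(CPM + 1), scaled by TMM (trimmed mean of M values), minus the member's mean over 9 libraries. It was 0.17, 0.16 and 0.26 in SW480, 0.11, 0.26 and 0.19 in SW480-B, and -0.45, -0.36 and -0.37 in SW480-gRNA-B-all. The highest SW480-gRNA-B-all library lay 0.47 below the lowest of the 6 others. By line the arm value was 0.20 ± 0.05 (SD, n = 3) in SW480, 0.19 ± 0.08 in SW480-B and -0.39 ± 0.05 in SW480-gRNA-B-all. Over all expressed genes the same median lay between -0.03 and 0.04 in every library. Members took 0.896, 0.925 and 0.909% of the counts in SW480, 0.925, 0.934 and 0.926% in SW480-B and 0.586, 0.623 and 0.622% in SW480-gRNA-B-all. Fewer cells that express a gene and less of its RNA per cell cannot be told apart in these bulk libraries.

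**Figure D1:**
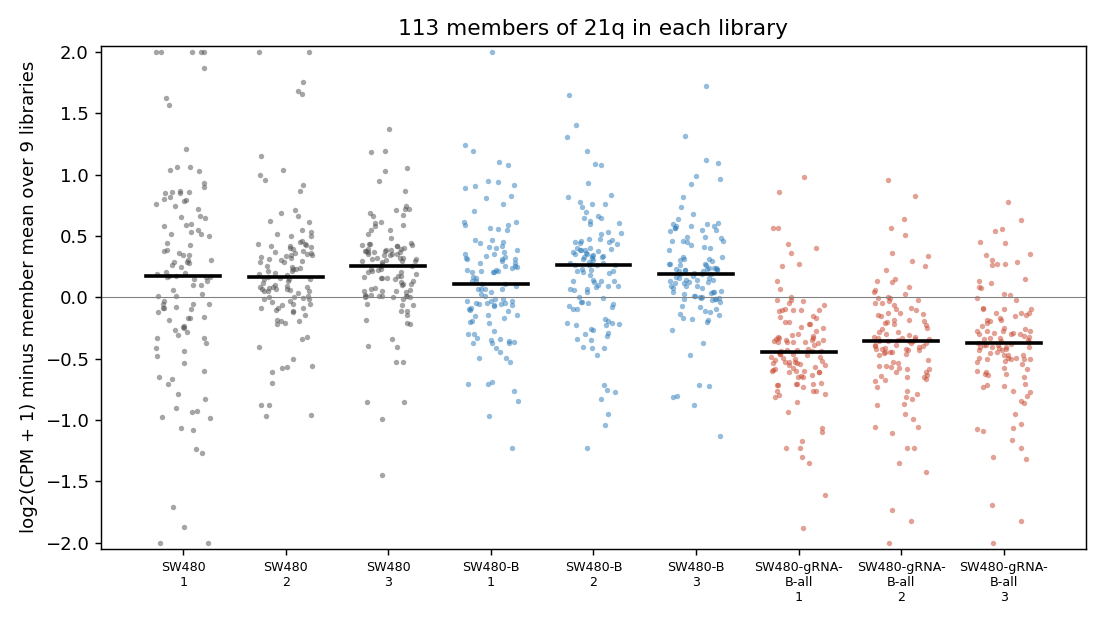
Each point is 1 of the 113 members in 1 library, as log2(CPM + 1) minus its own mean over the 9 libraries (y axis), and each bar is the median of the members. Libraries are on the x axis by line and replicate number, and 12 of 1017 points lie beyond the axis and are drawn at its edge at -2 or 2. The 3 SW480-gRNA-B-all medians lie between -0.45 and -0.36, and the 6 others between 0.11 and 0.26.

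Single members followed the same order. The line with the lowest mean CPM was SW480-gRNA-B-all for 93 members, SW480 for 14 and SW480-B for 6. Below their own 9-library mean in all 3 SW480-gRNA-B-all libraries were 87 members, and above it were 6. For 51 of 113 members (48 of the 107 at 1 CPM in at least 1 library of every line) every SW480-gRNA-B-all library was below all 6 others, where 8.62% of the 14021 expressed genes of all arms had that order, and 0 of 113 members had every SW480-gRNA-B-all library above the others, where 8.58% of all had. With any 1 library left out, 52 to 61 members were without overlap, beside 8.97 to 16.6% of all genes, an alternative chosen after seeing the data. Without SW480-gRNA-B-all replicate 1 the count was 60 members, beside 16.6% of all genes.

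Across the 40 arms with at least 50 expressed protein-coding genes, every SW480-gRNA-B-all library was below the 6 others on 6 arms, Xp, 21q, 18q, 7q, 5p and 5q, with gaps of 0.39, 0.47, 0.02, 0.02, 0.03 and 0.01. The difference between the SW480-gRNA-B-all mean and the mean of the 6 other libraries was -0.59 for 21q and -0.76 for Xp. On Xp the 3 SW480-gRNA-B-all libraries stood at -0.25, -0.64 and -0.63, so library 1 was apart from the other 2, whereas on 21q they were within 0.05 (SD) of each other. On 18q the SW480 libraries spread from -0.00 to 0.70 and both BASP1 lines were below all of them. Every SW480-gRNA-B-all library was below the 6 others for 45.6% of Xp genes, 45.1% of 21q members and 17.2% of 18q genes. Whether 21q differs from Xp or 18q was not tested.

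For SW480-gRNA-B-all against SW480, all 113 members passed the filter on low counts, and 97 had a log2 fold change below 0. The median was -0.65 (1.57-fold lower), with quartiles of -0.91 and -0.25, where the median of all 16100 genes tested was -0.05. After a loess trend on GC content and length was subtracted, the median of the members was -0.41. Called at an adjusted p under 0.05 (edgeR quasi-likelihood test, Benjamini-Hochberg adjusted) were 28 members lower, 24.8%, beside 5.52% of all genes, and 0 members higher, beside 2.29%. The share was not particular to 21q, as 28.1% of Xp genes and 16.4% of 18q genes were called lower. By median log2 fold change 21q had rank 3 among the arms, after Xp (-0.87) and 18q (-0.67). At an unadjusted p under 0.05 there were 66 lower members and 1 higher, beside 4572 of the 16100 genes in either direction. DESeq2 called 48 members lower, beside 9.56% of all genes, and 1 higher (PDE9A), beside 6.08%. Of the 28, CHODL, PCP4, MAP3K7CL and SPATC1L reached 1 CPM in no SW480-gRNA-B-all library and became members through other lines, a choice that favours a fall. Among the 107 members at 1 CPM in at least 1 library of every line, a subset chosen after seeing the data, 24 were called lower and 0 higher, beside 4.04 and 2.01% of the 13475 genes under the same rule, and the median was -0.63. The 24 include PCBP3, at 0.948, 0.534 and 0.501 scaled CPM in SW480-gRNA-B-all, whose fall the choice also favours. In the following paragraphs a call is one by edgeR unless DESeq2 is named. Log2 fold changes between -1 and -0.3 were held by 50.4% of members and by 21.5% of the protein-coding genes of other arms. The count rested on single libraries, and the median much less. Without SW480 replicate 2 edgeR called 0 members, 60 of them at an unadjusted p under 0.05, and 0.0485% of all genes. Without SW480 replicate 3 it called 44 lower and 4 higher, beside 12.8 and 8.11% of all genes. Without SW480-gRNA-B-all replicate 1, 2 or 3 it called 4, 2 and 2 members, and 3 with libraries 2 and 3 summed, beside 1.06, 0.464, 0.452 and 0.577% of all genes, while the median stayed between -0.55 and -0.64 in these 6 fits. Every call of SW480-gRNA-B-all against SW480 named in the following paragraphs was thus lost without SW480 replicate 2, and of the other 5 fits with 1 library left out, none of the 107 members was called in all. MAP3K7CL and PCP4 were, but the choice of members favours their fall.

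For SW480-B against SW480 the arm did not move as a whole. All 113 members passed the filter, 53 had a log2 fold change below 0 and 60 above, and the median was 0.02 (quartiles -0.23 and 0.27) beside -0.00 over all 16106 genes tested. By the edgeR quasi-likelihood test, Benjamini-Hochberg adjusted, 3 members were called lower, CHODL, TMPRSS15 and PCP4, beside 1.25% of all genes, and 0 higher, beside 0.0931%. These 3 members reached 1 CPM in every SW480 library and in no library of another line, so they became members through SW480 alone, a choice that favours a fall, and their calls say nothing of the arm. Among the 107 members at 1 CPM in every line 0 were called, beside 0.275% of genes lower and 0.0668% higher. These counts are from the fit without pairs. With the replicate block edgeR called 4 of the 113 members lower, the 3 above among them, beside 1.99% of all genes, and 25 members were at an unadjusted p under 0.05. At an unadjusted p under 0.05 were 8 members lower and 8 higher, a share near that of all genes (2549 of 16106 in either direction), and DESeq2 called 6 lower and 2 higher, beside 3.75 and 1.89% of all genes. Without SW480-B replicate 1 or replicate 2 edgeR called 0 members, 8 and 9 of them at an unadjusted p under 0.05, and 0 of all 16646 and 16810 genes. Without SW480-B replicate 3 it called 1 member, beside 0.095% of all genes, and without SW480 replicate 2 it called 2, beside 0.337%. Without SW480 replicate 3 it called 5 lower and 5 higher, beside 4.14 and 1.35% of all genes.

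For SW480-gRNA-B-all against SW480-B, 110 members passed the filter and 97 of them had a log2 fold change below 0. CHODL, TMPRSS15 and PCP4 did not pass, being near 0 in both lines. The median was -0.58 (1.49-fold lower), with quartiles of -0.91 and -0.32, beside -0.00 over all 15846 genes tested. Called by the edgeR quasi-likelihood test, Benjamini-Hochberg adjusted, were 36 members lower, 32.7%, beside 5.73% of all genes, and 1 higher, SIK1, beside 3.03%. Left without SW480-gRNA-B-all replicate 2 or 3, or with the pair summed, 9 members were called in each fit, beside 2.74, 2.58 and 2.74% of all genes, and 13 without SW480-B replicate 2, beside 3.77%, while the median kept between -0.54 and -0.58 in these 4 fits. CXADR, EVA1C, HSPA13, MAP3K7CL, MRPS6, SPATC1L, TIAM1 and TTC3 were called in each of the 6 fits with 1 library left out, of which MAP3K7CL and SPATC1L reached 1 CPM in the other lines alone. Among the 107 members at 1 CPM in every line, 34 were called lower, beside 5.34% of genes, and 1 higher, beside 2.67%, with a median of -0.58. The 34 include PCBP3, whose fall the choice of members favours. Each of the other calls against SW480-B named below was lost without at least 1 library. The comparisons of SW480-gRNA-B-all with SW480 and with SW480-B share the SW480-gRNA-B-all libraries, so they are not independent of each other.

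**Figure D2:**
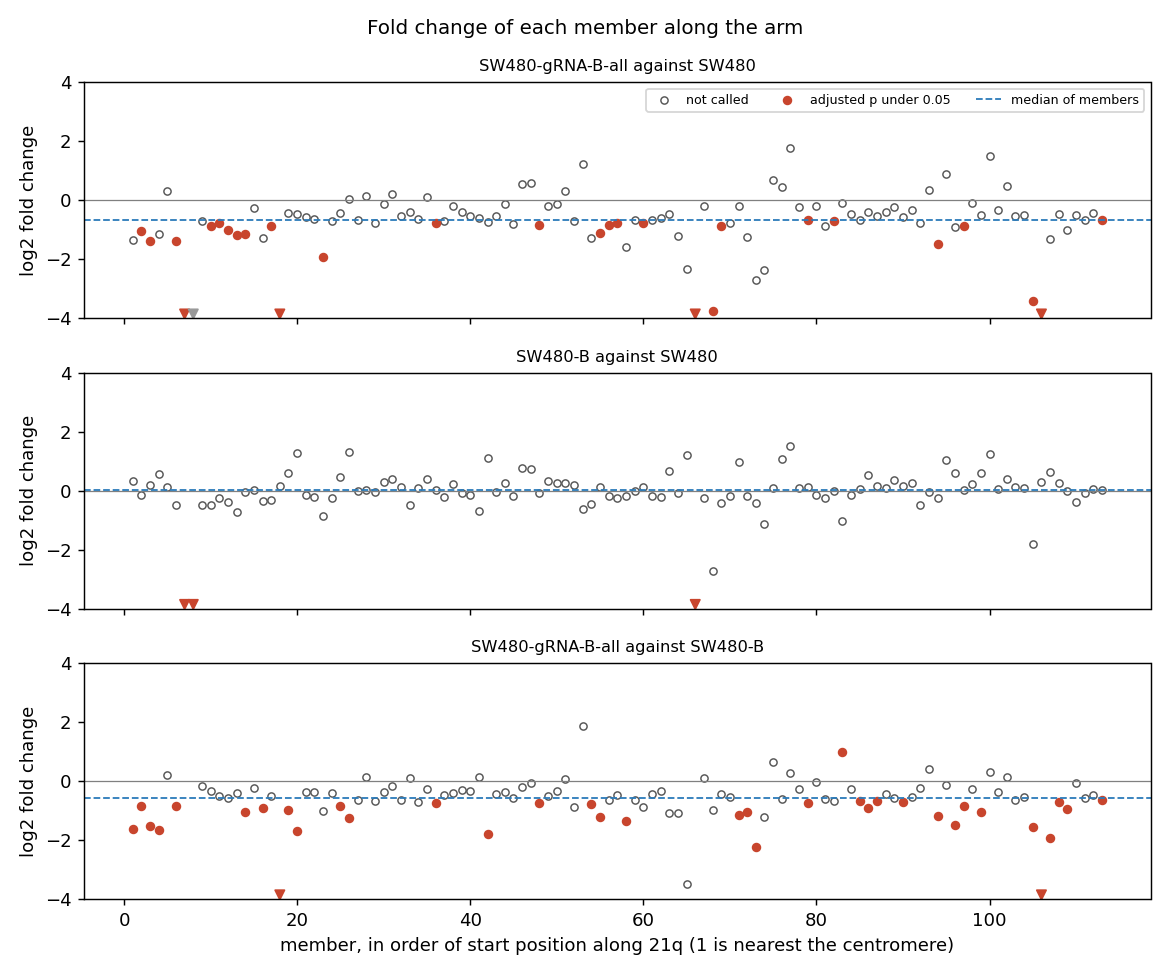
Each point is 1 member, with its rank by start position along 21q on the x axis and its log2 fold change on the y axis, in 3 panels for the 3 comparisons. Filled red points have an adjusted p under 0.05, the dashed line is the median of the members (-0.65, 0.02 and -0.58), and triangles at the lower edge (red where called) stand for 5, 3 and 2 members below -4.

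The lower level ran along the whole arm. In 5 windows with 23, 23, 23, 22 and 22 members in order of position, every SW480-gRNA-B-all library was below the 6 others in each window. In the window nearest the centromere, from HSPA13 to HUNK, the medians were 0.65, 0.38 and 0.35 in SW480, -0.04, 0.21 and 0.22 in SW480-B and -0.61, -0.59 and -0.52 in SW480-gRNA-B-all. The second window, MIS18A to CBR1, stood at 0.03, 0.04 and 0.30 in SW480, 0.16, 0.13 and 0.23 in SW480-B and -0.35, -0.21 and -0.25 in SW480-gRNA-B-all. The middle window, CBR3 to RIPK4, stood at 0.28, 0.24 and 0.21 in SW480, 0.07, 0.09 and 0.14 in SW480-B and -0.44, -0.42 and -0.45 in SW480-gRNA-B-all. In this window and in the one nearest the centromere every SW480-B library was also below every SW480 library, and in the other 3 windows these lines overlapped. In the last window, GATD3 to PRMT2, the values were 0.02, 0.17 and 0.31, then 0.24, 0.34 and 0.21, then -0.47, -0.41 and -0.37. The first window thus had the widest gap in medians against SW480, with a median log2 fold change of -1.04 beside -0.52, -0.78, -0.43 and -0.52 in the others. Of the 28 lower calls it held 12 among its 23 members, beside 5.52% of all genes. It also holds CHODL, TMPRSS15 and MAP3K7CL, whose falls the choice of members favours. Without these 3 its median was -0.92, with 10 lower calls among 20 members, beside 4.04% of the 13475 genes at 1 CPM in every line. Against SW480-B the 5 medians were -0.85, -0.41, -0.63, -0.60 and -0.59. The first window also had the lowest median GC content of the members' exons, 42.1%, and the part of GC content in its value was not tested. The longest run of neighbouring members with a log2 fold change below 0 against SW480 held 21 members, from PIGP to TMPRSS3. At the ends of the arm, HSPA13, a chaperone of the HSP70 family, stood at 244, 129 and 87.8 CPM in SW480, 217, 208 and 143 CPM in SW480-B and 76.1, 55.5 and 51.3 CPM in SW480-gRNA-B-all, and PRMT2, an arginine methyltransferase, at 89.3, 74.2 and 76.6 CPM in SW480, 79.7, 89.9 and 68.05 CPM in SW480-B and 53.7, 50.7 and 49.05 CPM in SW480-gRNA-B-all. Both were lower in every SW480-gRNA-B-all library than in all others.

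Genes of other biotypes on the arm (long non-coding RNAs and pseudogenes), which the choice of members did not use, were fewer and lower in level. Over 17 of them that passed 1 CPM in 3 libraries, the medians were 0.06, -0.23 and -0.01 in SW480, 0.50, 0.03 and 0.05 in SW480-B and -0.27, -0.17 and -0.22 in SW480-gRNA-B-all. The SW480-gRNA-B-all range overlapped that of SW480, through SW480 replicate 2. Of the 17, 3 had every SW480-gRNA-B-all library below the 6 others (PAXBP1-AS1, LINC00649 and MCM3AP-AS1), beside 8.62% of the 14021 expressed genes of all arms. Nothing is read from so small a count. The long non-coding RNA LINC00649 stood at 22.5, 21.02 and 33.8 CPM in SW480, 71.97, 47.9 and 42.05 CPM in SW480-B and 15.4, 16.96 and 17.9 CPM in SW480-gRNA-B-all, lower in every SW480-gRNA-B-all library, while LINC00319 stood at 2.20, 1.03 and 1.20 CPM in SW480, 1.51, 1.14 and 0.707 CPM in SW480-B and 7.89, 6.74 and 8.08 CPM in SW480-gRNA-B-all, higher in every one.

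Members of different levels differed in their spread. The lowest 38 members by mean CPM (0.774 to 25.6 CPM) had a median log2 fold change against SW480 of -0.84, with quartiles of -2.11 and 0.07, and 10 of them were above 0. Among the middle 38 members (26.7 to 68.4 CPM) the median was -0.43, with quartiles of -0.68 and -0.20. The highest 37 members (70.1 to 514 CPM) had a median of -0.69, with quartiles of -0.85 and -0.54, and none above 0. The highest members thus had the narrowest quartiles. Of the 51 members without overlap, 16 were among the lowest, 10 among the middle and 25 among the highest members, beside 8.62% of the 14021 expressed genes with that order. Of the members, 33 shared bases with another protein-coding gene and 35 with no annotated gene. Reads classed as ambiguous were 3.09 to 3.44% per library. The strand setting of the counting is not given in the sources used here, so how the reads of overlapping genes were assigned is not known. The 35 members free of overlaps had median log2 fold changes of -0.51 against SW480 and -0.57 against SW480-B.

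Called lower against both other lines were 14 members, of 28 against SW480 and of 36 against SW480-B, beside 2.09% of the 15570 genes tested in both, and 12 without MAP3K7CL and SPATC1L: C21orf91, CFAP410, DOP1B, GART, LTN1, MAP3K7CL, NDUFV3, NRIP1, PCBP3, PRMT2, SPATC1L, TTC3, UBE2G2 and USP25. PCBP3, one of these 12, stood at 0.948, 0.534 and 0.501 CPM in SW480-gRNA-B-all, so the choice of members favours its fall too. In each of the 14 the SW480-gRNA-B-all libraries did not overlap the 6 others. The promoters of 4 of them are printed because the members moved together, namely the 3 with the lowest adjusted p over both comparisons among members with a mean of at least 10 CPM, and SPATC1L, which was near 0. They are RefSeq sequences on GRCh38.p14, 250 bases before to 50 after the first listed start, with capitals marking the motifs searched for: GGGCGG (the GC box), CACGTG (the E-box), CTTTGAT (the TCF/LEF motif), TATAAA (the TATA box) and CCGGAAG (the ETS motif), on either strand. The promoter of UBE2G2 lies at chr21:44801771-44802070, minus strand, that of CFAP410 at chr21:44339341-44339640, minus strand, that of C21orf91 at chr21:17819307-17819606, minus strand and that of SPATC1L at chr21:46184410-46184709, minus strand.
UBE2G2: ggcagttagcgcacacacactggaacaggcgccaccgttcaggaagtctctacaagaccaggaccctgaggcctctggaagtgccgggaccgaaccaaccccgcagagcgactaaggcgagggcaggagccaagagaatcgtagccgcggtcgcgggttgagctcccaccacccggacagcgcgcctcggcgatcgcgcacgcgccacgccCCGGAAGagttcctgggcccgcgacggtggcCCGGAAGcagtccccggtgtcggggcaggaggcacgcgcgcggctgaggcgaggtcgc
CFAP410: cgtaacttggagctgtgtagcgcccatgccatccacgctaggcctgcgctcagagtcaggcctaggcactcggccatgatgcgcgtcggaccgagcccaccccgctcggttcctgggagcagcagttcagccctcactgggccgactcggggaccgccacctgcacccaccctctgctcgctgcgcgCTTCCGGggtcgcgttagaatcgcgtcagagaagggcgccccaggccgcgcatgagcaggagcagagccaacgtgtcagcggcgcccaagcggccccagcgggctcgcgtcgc
C21orf91: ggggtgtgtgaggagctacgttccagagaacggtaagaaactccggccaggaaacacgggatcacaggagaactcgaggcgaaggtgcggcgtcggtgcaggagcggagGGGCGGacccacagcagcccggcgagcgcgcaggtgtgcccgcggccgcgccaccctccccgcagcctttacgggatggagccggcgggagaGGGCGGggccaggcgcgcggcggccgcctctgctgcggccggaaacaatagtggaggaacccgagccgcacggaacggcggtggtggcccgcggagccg
SPATC1L: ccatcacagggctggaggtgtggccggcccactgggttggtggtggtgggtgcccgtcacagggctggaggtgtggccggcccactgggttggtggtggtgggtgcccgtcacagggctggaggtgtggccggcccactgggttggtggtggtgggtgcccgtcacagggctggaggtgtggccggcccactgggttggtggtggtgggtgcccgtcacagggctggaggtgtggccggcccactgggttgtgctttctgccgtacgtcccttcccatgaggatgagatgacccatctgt
The UBE2G2 promoter held CCGGAAG at 2 places and the CFAP410 promoter at 1, the C21orf91 promoter held GGGCGG at 2 places, and the SPATC1L window held none of the 5 motifs. CFAP410, a protein of the cilium base, stood at 18.02, 14.1 and 12.7 CPM in SW480, 11.7, 13.4 and 11.8 CPM in SW480-B and 4.13, 5.84 and 6.21 CPM in SW480-gRNA-B-all, and C21orf91, named after its values were seen, at 44.8, 38.6 and 26.8 CPM in SW480, 29.7, 22.9 and 24.4 CPM in SW480-B and 13.5, 15.5 and 13.8 CPM in SW480-gRNA-B-all. In both, the SW480-gRNA-B-all libraries were below the 6 others. CpG dinucleotides numbered 36, 33, 39 and 11 in these 4 windows. Over the 86 members matched to a promoter of 300 bases, 66.3% held GGGCGG, 24.4% CCGGAAG, 9.3% CACGTG, 8.14% TATAAA and 0% CTTTGAT. The shares of all 27305 promoters in the table were 44.6, 10.7, 7.43, 11.95 and 2.64%, and those of 10145 promoters of expressed protein-coding genes were 71.8, 19.3, 10.04, 5.44 and 1.33%. Median GC content was 69.8% in member promoters, 58.3% in all and 65.7% in those of expressed genes. The member shares lay nearer those of expressed genes than those of all promoters. A match describes the letters of the window and shows no binding.

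By role, 95 members were placed on at least 1 of 9 lists and 18 on none. Beside every list count stand the 5.52% of all genes called lower against SW480 and the 5.73% against SW480-B, and 1 member of a list of 12 is near those shares. The list of ubiquitin, SUMO, chaperone and proteasome genes had 12 members. Of these, 5 were called lower against SW480 and 7 against SW480-B by edgeR's quasi-likelihood test, with medians of -0.85 and -0.76, and 0 higher. The list also held CSTB, which belongs to none of these classes and is among the 7 (adjusted p = 0.0463 by the same edgeR test). UBE2G2 (chr21:46188495-46221741, minus strand, GRCh37), an E2 enzyme that hands ubiquitin to misfolded proteins of the endoplasmic reticulum, stood at 117, 129 and 128 CPM in SW480, 131, 113 and 129 CPM in SW480-B and 70.8, 65.2 and 71.8 CPM in SW480-gRNA-B-all. Its SW480-gRNA-B-all libraries lay close together and below the 6 others, and the SW480 and SW480-B libraries overlapped. Log2 fold changes were -0.85 ± 0.14 (SE) against SW480 and -0.84 ± 0.15 against SW480-B (edgeR's quasi-likelihood test, Benjamini-Hochberg adjusted p = 0.0184 and 0.0125). USP25, a deubiquitinating enzyme, stood at 52.5, 43.5 and 32.6 CPM in SW480, 38.5, 67.6 and 36.7 CPM in SW480-B and 22.2, 12.9 and 14.5 CPM in SW480-gRNA-B-all. SW480-B replicate 2 was the highest library, and SW480-gRNA-B-all was the lowest line in every library. CCT8, a subunit of the cytosolic chaperonin that folds actin and tubulin, stood at 466, 539.8 and 491 CPM in SW480, 291, 455 and 439 CPM in SW480-B and 251, 294 and 286 CPM in SW480-gRNA-B-all. Here 1 SW480-gRNA-B-all library reached the lowest SW480-B library, and the call was against SW480 alone (-0.85 ± 0.16, adjusted p = 0.0298, edgeR quasi-likelihood test, Benjamini-Hochberg adjusted). TTC3 and LTN1 are E3 ubiquitin ligases, named after their values were seen. TTC3 stood at 233, 365 and 252 CPM in SW480, 289, 362 and 268 CPM in SW480-B and 106, 149 and 144 CPM in SW480-gRNA-B-all and LTN1 at 145, 98.5 and 75.9 CPM in SW480, 119, 102 and 80.98 CPM in SW480-B and 54.3, 45.3 and 45.9 CPM in SW480-gRNA-B-all. In both, SW480-gRNA-B-all was below the 6 others, with log2 fold changes against SW480-B of -1.20 ± 0.20 and -1.06 ± 0.19 (edgeR's quasi-likelihood test, Benjamini-Hochberg adjusted p = 0.0106 and 0.013).

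RNA processing and ribosome assembly genes had 14 members, with 3 called lower against SW480 and 5 against SW480-B, 9 of 14 without overlap, beside 8.62% of all genes, and medians of -0.65 and -0.60. U2AF1, the splicing factor subunit that reads the 3′ splice site, stood at 226, 245 and 262 CPM in SW480, 196, 282 and 241 CPM in SW480-B and 142, 157 and 154 CPM in SW480-gRNA-B-all. The SW480-gRNA-B-all libraries were below the 6 others and close to each other. Its call held against SW480 (-0.70 ± 0.15, adjusted p = 0.035, edgeR quasi-likelihood test, Benjamini-Hochberg adjusted) and missed the threshold against SW480-B (-0.67 ± 0.18, adjusted p = 0.0523, edgeR, Benjamini-Hochberg adjusted), where DESeq2 called it. SON, a nuclear speckle protein that shares bases with GART and DONSON, stood at 429.8, 551 and 441 CPM in SW480, 452, 406 and 350.0 CPM in SW480-B and 255, 309 and 321 CPM in SW480-gRNA-B-all. SW480-gRNA-B-all did not overlap the other lines, edgeR called neither comparison, and DESeq2 called SON against SW480. N6AMT1, a methyltransferase, stood at 39.8, 25.6 and 24.4 CPM in SW480, 16.3, 16.2 and 20.03 CPM in SW480-B and 12.02, 14.2 and 13.4 CPM in SW480-gRNA-B-all, in the order SW480, SW480-B, SW480-gRNA-B-all with no overlap between lines. PCBP3, a poly(C)-binding protein, stood at 10.6, 9.06 and 1.53 CPM in SW480, 2.13, 1.75 and 2.01 CPM in SW480-B and 0.948, 0.534 and 0.501 CPM in SW480-gRNA-B-all, and SW480 replicate 3 was closer to SW480-B than to the other SW480 libraries. The choice of members favours the fall of PCBP3, which is among the calls of this list against either line.

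Of 16 transcription and chromatin genes, 4 were called lower against SW480 and 5 against SW480-B, with medians of -0.67 and -0.52. NRIP1, a corepressor of nuclear receptors, stood at 37.6, 32.3 and 24.4 CPM in SW480, 27.5, 28.8 and 26.4 CPM in SW480-B and 15.2, 14.7 and 16.1 CPM in SW480-gRNA-B-all. GABPA, an ETS-family activator of genes for mitochondrial proteins, stood at 53.1, 55.9 and 59.3 CPM in SW480, 44.6, 48.3 and 47.1 CPM in SW480-B and 28.8, 36.7 and 33.4 CPM in SW480-gRNA-B-all. BRWD1, a bromodomain protein, stood at 84.6, 90.1 and 69.2 CPM in SW480, 129, 72.6 and 59.3 CPM in SW480-B and 49.96, 43.5 and 49.5 CPM in SW480-gRNA-B-all. In all 3 of these genes SW480-gRNA-B-all was below the 6 others, with log2 fold changes against SW480 of -1.04 ± 0.21, -0.77 ± 0.16 and -0.78 ± 0.16 (edgeR's quasi-likelihood test, Benjamini-Hochberg adjusted p = 0.0331, 0.0345 and 0.0357). ETS2, another ETS factor, stood at 62.8, 81.7 and 174 CPM in SW480, 64.5, 76.8 and 131 CPM in SW480-B and 42.2, 32.9 and 31.3 CPM in SW480-gRNA-B-all. Replicate 3 was the highest library in both SW480 and SW480-B, and the call was against SW480-B (-1.36 ± 0.28, adjusted p = 0.0217, edgeR quasi-likelihood test, Benjamini-Hochberg adjusted). HMGN1, a nucleosome-binding protein, at 359, 307 and 442 CPM in SW480, 222, 281 and 442 CPM in SW480-B and 205, 255 and 245 CPM in SW480-gRNA-B-all, and CHAF1B, a subunit of the histone chaperone CAF-1, at 42.9, 48.9 and 70.2 CPM in SW480, 41.7, 75.4 and 71.02 CPM in SW480-B and 39.7, 56.5 and 53.9 CPM in SW480-gRNA-B-all, were not called. In both genes the SW480-gRNA-B-all libraries overlapped those of SW480-B.

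Mitochondrial proteins had 6 members, with 2 called lower against SW480 and 2 against SW480-B and medians of -0.71 and -0.27. ATP5PF, a subunit of ATP synthase whose first bases overlap GABPA, stood at 138, 108 and 118 CPM in SW480, 69.2, 76.5 and 106 CPM in SW480-B and 64.9, 68.9 and 68.2 CPM in SW480-gRNA-B-all, where SW480-B lay between the other lines. NDUFV3, a subunit of respiratory complex I, stood at 60.05, 54.4 and 53.6 CPM in SW480, 52.9, 67.03 and 58.2 CPM in SW480-B and 38.1, 36.6 and 32.4 CPM in SW480-gRNA-B-all, with both other lines alike. MRPS6, of the small mitochondrial ribosomal subunit, stood at 81.5, 86.9 and 189.5 CPM in SW480, 294, 153 and 310.1 CPM in SW480-B and 54.5, 83.1 and 80.2 CPM in SW480-gRNA-B-all. It shares bases with SLC5A3, its SW480-B libraries were the highest but for overlap with SW480 replicate 3, and it fell against SW480-B (-1.80 ± 0.30, adjusted p = 0.0108, edgeR quasi-likelihood test, Benjamini-Hochberg adjusted). SOD1, the cytosolic superoxide dismutase, which was listed under metabolism, stood at 302, 287 and 386 CPM in SW480, 198, 260.0 and 404 CPM in SW480-B and 194, 237 and 238 CPM in SW480-gRNA-B-all, where SW480-gRNA-B-all overlapped SW480-B and no comparison passed.

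The list of purine, folate, sulfur and vitamin metabolism also held other metabolic genes, among them LSS, SOD1, CBR1, CBR3 and AGPAT3. Of its 12 members 1 was called lower against SW480 and 3 against SW480-B, LSS among the 3. The medians over the whole list were -0.44 and -0.58. GART, which carries out 3 steps of purine synthesis, stood at 375, 312 and 296 CPM in SW480, 302, 358 and 325 CPM in SW480-B and 216, 186 and 184 CPM in SW480-gRNA-B-all, and its log2 fold changes were -0.75 ± 0.17 against SW480 and -0.75 ± 0.16 against SW480-B (edgeR's quasi-likelihood test, Benjamini-Hochberg adjusted p = 0.0449 and 0.0262). CBS, the enzyme that joins homocysteine to serine, stood at 261, 105 and 30.1 CPM in SW480, 158, 117 and 50.6 CPM in SW480-B and 125, 45.3 and 46.2 CPM in SW480-gRNA-B-all. Its libraries spread widely within each line, replicate 1 was the highest in every line, and no comparison passed. CBR3, a carbonyl reductase, spread the other way, at 0.999, 4.41 and 21.6 CPM in SW480, 4.06, 7.23 and 31.8 CPM in SW480-B and 8.30, 16.6 and 16.03 CPM in SW480-gRNA-B-all, with replicate 1 the lowest in every line. LSS, the lanosterol synthase of the cholesterol pathway, stood at 82.2, 169.8 and 88.9 CPM in SW480, 179.7, 247 and 95.6 CPM in SW480-B and 35.7, 50.2 and 52.6 CPM in SW480-gRNA-B-all, below all others in SW480-gRNA-B-all and called against SW480-B (-1.92 ± 0.33, adjusted p = 0.0122, edgeR quasi-likelihood test, Benjamini-Hochberg adjusted). SLC19A1, the reduced folate carrier, stood at 25.2, 50.1 and 50.1 CPM in SW480, 29.8, 50.99 and 51.1 CPM in SW480-B and 22.3, 33.3 and 34.6 CPM in SW480-gRNA-B-all, with overlap and no call.

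Kinases and signaling genes had 12 members, with 3 called lower against SW480, 1 lower and 1 higher against SW480-B, and medians of -0.29 and -0.36. DYRK1A, a dual-specificity kinase, stood at 123, 111 and 96.95 CPM in SW480, 94.4, 100.3 and 76.4 CPM in SW480-B and 62.4, 64.1 and 68.2 CPM in SW480-gRNA-B-all, with SW480-gRNA-B-all below the 6 others (-0.78 ± 0.15, adjusted p = 0.0304, edgeR quasi-likelihood test, Benjamini-Hochberg adjusted, against SW480). HUNK, a kinase of the AMPK family, stood at 74.7, 84.9 and 85.8 CPM in SW480, 24.9, 49.4 and 56.6 CPM in SW480-B and 10.4, 26.4 and 28.6 CPM in SW480-gRNA-B-all, where SW480 was above every library of the other lines. RIPK4, a kinase of epithelial differentiation, stood at 25.5, 26.4 and 20.7 CPM in SW480, 16.4, 18.4 and 18.1 CPM in SW480-B and 13.3, 13.02 and 13.2 CPM in SW480-gRNA-B-all, in 3 groups with no overlap. SIK1, the salt-inducible kinase, ran against the arm: it stood at 41.5, 32.1 and 33.5 CPM in SW480, 18.98, 12.7 and 19.3 CPM in SW480-B and 35.1, 32.7 and 32.95 CPM in SW480-gRNA-B-all. SW480-B was below all other libraries, the SW480-gRNA-B-all libraries were within the range of SW480, and the log2 fold change was 0.98 ± 0.21 against SW480-B and -1.03 ± 0.26 for SW480-B against SW480 (edgeR's quasi-likelihood test, Benjamini-Hochberg adjusted p = 0.0254 and 0.123), and the call held without SW480-B replicate 3 and was lost without any other library of either line (adjusted p = 0.0519 to 0.106 for SIK1, SW480-gRNA-B-all against SW480-B). RCAN1, an inhibitor of calcineurin, ITSN1, an endocytic scaffold, and SYNJ1, a lipid phosphatase of synaptic vesicles, were not called. RCAN1 stood at 26.6, 27.4 and 23.5 CPM in SW480, 34.8, 31.8 and 25.3 CPM in SW480-B and 34.7, 18.7 and 17.6 CPM in SW480-gRNA-B-all and SYNJ1 at 20.8, 23.7 and 35.6 CPM in SW480, 28.8, 23.2 and 28.3 CPM in SW480-B and 25.3, 30.5 and 32.9 CPM in SW480-gRNA-B-all, with lines that overlapped. ITSN1 stood at 46.7, 61.5 and 62.1 CPM in SW480, 46.5, 46.3 and 56.2 CPM in SW480-B and 30.1, 44.2 and 43.5 CPM in SW480-gRNA-B-all, with SW480-gRNA-B-all below the 6 others.

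The interferon and cytokine receptor cluster had 4 members and 0 calls in any comparison by edgeR's quasi-likelihood test. At an unadjusted p under 0.05 there was 1 member against SW480, 1 against SW480-B and 0 for SW480-B against SW480, and DESeq2 called IFNAR1 against SW480-B. IFNAR1, a subunit of the type I interferon receptor, stood at 91.7, 129 and 128 CPM in SW480, 98.4, 151 and 126 CPM in SW480-B and 80.9, 83.2 and 77.3 CPM in SW480-gRNA-B-all, and SW480-gRNA-B-all was below the 6 others. IFNAR2, its partner, stood at 13.6, 17.96 and 23.4 CPM in SW480, 17.97, 22.2 and 25.97 CPM in SW480-B and 15.1, 16.8 and 19.1 CPM in SW480-gRNA-B-all. IL10RB, a subunit shared by receptors of the interleukin 10 family, stood at 10.96, 10.3 and 13.3 CPM in SW480, 14.9, 15.002 and 14.6 CPM in SW480-B and 11.7, 14.5 and 13.9 CPM in SW480-gRNA-B-all, and IFNGR2, of the interferon gamma receptor, at 81.8, 49.6 and 47.9 CPM in SW480, 44.6, 38.6 and 42.01 CPM in SW480-B and 42.3, 48.7 and 44.7 CPM in SW480-gRNA-B-all. In these 3 the SW480-gRNA-B-all libraries overlapped those of SW480. The median log2 fold changes of the 4 were -0.26 against SW480 and -0.27 against SW480-B, beside -0.65 and -0.58 for the whole arm. Centrosome and DNA replication genes likewise had 4 members and 0 calls, with medians of -0.48 and -0.34, where an unadjusted p under 0.05 was reached by 1 member against SW480 and 1 against SW480-B, and DESeq2 called PCNT against SW480.

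Membrane, adhesion and secretory proteins had 15 members, with 4 called lower against SW480, 6 against SW480-B and medians of -0.85 and -0.74. APP, the amyloid precursor protein (chr21:27252846-27543446, minus strand, GRCh37), stood at 645, 717 and 524 CPM in SW480, 438, 568 and 418 CPM in SW480-B and 261, 342 and 349 CPM in SW480-gRNA-B-all. SW480-gRNA-B-all was below the 6 others, SW480-B overlapped SW480, and its call was against SW480 (-0.99 ± 0.21, adjusted p = 0.0358) and missed the threshold against SW480-B (-0.58 ± 0.20, adjusted p = 0.119, both by the edgeR quasi-likelihood test, Benjamini-Hochberg adjusted). PTTG1IP, the member with the highest mean CPM and also the highest mean CPM per kilobase of exon, stood at 349.7, 452 and 653 CPM in SW480, 718, 748 and 668 CPM in SW480-B and 344, 351 and 342 CPM in SW480-gRNA-B-all. The SW480-B libraries were the highest and the SW480-gRNA-B-all libraries within 4.43 CPM (SD) of each other, so it was called against SW480-B (-1.04 ± 0.16, adjusted p = 0.00816, edgeR quasi-likelihood test, Benjamini-Hochberg adjusted) and not against SW480. VPS26C, a subunit of an endosomal recycling complex, stood at 104, 79.2 and 82.6 CPM in SW480, 93.8, 73.3 and 62.5 CPM in SW480-B and 47.996, 51.2 and 48.7 CPM in SW480-gRNA-B-all, and BACE2, a membrane protease, at 68.6, 132 and 218 CPM in SW480, 107, 119 and 118 CPM in SW480-B and 69.7, 150.2 and 152 CPM in SW480-gRNA-B-all, of which the former did not overlap and the latter did. ABCG1, a cholesterol exporter, stood at 62.7, 33.7 and 7.67 CPM in SW480, 32.5, 32.3 and 11.1 CPM in SW480-B and 8.60, 3.70 and 3.84 CPM in SW480-gRNA-B-all, and SW480 replicate 3 lay within the range of SW480-gRNA-B-all. Its call was against SW480-B (-2.24 ± 0.49, adjusted p = 0.0277, edgeR quasi-likelihood test, Benjamini-Hochberg adjusted). B3GALT5, a galactosyltransferase, stood at 19.3, 20.3 and 7.56 CPM in SW480, 58.99, 34.3 and 12.6 CPM in SW480-B and 7.93, 0.534 and 1.00 CPM in SW480-gRNA-B-all, and TMPRSS3, a membrane serine protease, at 48.1, 18.8 and 4.00 CPM in SW480, 14.2, 13.2 and 4.42 CPM in SW480-B and 6.40, 3.60 and 3.84 CPM in SW480-gRNA-B-all. Both spread widely inside each line, edgeR called neither, and DESeq2 called both in SW480-gRNA-B-all against either line.

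Members that nearly vanished fell into separate groups. Lost in both BASP1 lines were CHODL, TMPRSS15 and PCP4, which became members through SW480 alone, so their falls are given as a description. CHODL, a C-type lectin of the membrane, stood at 11.1, 5.51 and 2.18 CPM in SW480, 0.0773, 0.142 and 0.106 CPM in SW480-B and 0.102, 0 and 0 CPM in SW480-gRNA-B-all. TMPRSS15, the intestinal protease that activates trypsinogen, stood at 60.1, 13.1 and 1.35 CPM in SW480, 0, 0 and 0.0707 CPM in SW480-B and 0, 0 and 0 CPM in SW480-gRNA-B-all, a wide spread within SW480. PCP4, a small calmodulin-binding protein, stood at 4.03, 4.45 and 2.87 CPM in SW480, 0.0387, 0.0356 and 0.0353 CPM in SW480-B and 0, 0 and 0 CPM in SW480-gRNA-B-all. Ratios over summed counts, with 95% counting intervals, put CHODL between 30.3-fold and 128-fold lower in SW480-B (9 counts against 543) and 189-fold (64.4 to 920.5) lower in SW480-gRNA-B-all, each against SW480. TMPRSS15 was 1038-fold (287 to 8579) lower in SW480-B, and PCP4 104-fold (35.3 to 508) lower. With 0 counts in SW480-gRNA-B-all, TMPRSS15 was at least 753-fold lower and PCP4 at least 113-fold lower there, against 3 counts over the line. These ratios moved with single libraries, an alternative chosen after seeing the data. Without SW480 replicate 1, which held 1744 of the 2160 counts of TMPRSS15, its ratios were 303-fold in SW480-B and at least 219-fold in SW480-gRNA-B-all, and those of CHODL were 35.6-fold and 116-fold. Without SW480-B replicate 3 TMPRSS15 was at least 454-fold lower, and without SW480-B replicate 2 it was 684-fold lower. Without SW480-gRNA-B-all replicate 2 or 3, libraries at 0 for these 3 genes, less depth stood behind the ratios, which were 126-fold for CHODL, at least 501-fold for TMPRSS15 and at least 75.3-fold for PCP4. For SW480-gRNA-B-all against SW480, PCP4 and CHODL were called by edgeR and TMPRSS15 by DESeq2 alone. For SW480-B against SW480 edgeR called all 3, and none of the 3 without SW480-B replicate 1 or 2. The choice of members favours these falls, so nothing is read from the calls. TMPRSS2, a serine protease of epithelia that shares bases with MX1, followed the same order with some RNA left, at 39.5, 25.9 and 9.86 CPM in SW480, 5.57, 2.74 and 2.79 CPM in SW480-B and 2.47, 1.47 and 1.67 CPM in SW480-gRNA-B-all, and was called for SW480-gRNA-B-all against SW480 (-3.75 ± 0.55, adjusted p = 0.0157, edgeR quasi-likelihood test, Benjamini-Hochberg adjusted).

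Near 0 in SW480-gRNA-B-all alone were MAP3K7CL and SPATC1L. MAP3K7CL, named for its likeness to the kinase MAP3K7, stood at 4.20, 2.38 and 2.25 CPM in SW480, 3.52, 3.31 and 2.76 CPM in SW480-B and 0.0339, 0 and 0.0334 CPM in SW480-gRNA-B-all, and was 132-fold (36.2 to 1098) lower than in SW480 and 142-fold (39.0 to 1183) lower than in SW480-B by summed counts, or 87.95-fold and 94.7-fold without SW480-gRNA-B-all replicate 2, a library at 0. SPATC1L, a relative of a sperm centriole protein, stood at 3.76, 6.55 and 6.95 CPM in SW480, 5.33, 8.62 and 6.71 CPM in SW480-B and 0.271, 0.1 and 0.1 CPM in SW480-gRNA-B-all. Both became members through SW480 and SW480-B alone, so the choice favours their fall. They are among the calls counted above against either line, and nothing about the arm is read from their calls. SPATC1L was also the member whose pattern was most like the median of the other members over the 9 libraries (Pearson r = 0.98, a description), followed by U2AF1 (0.96), UBE2G2 (0.95), MAP3K7CL (0.95) and CFAP410 (0.94). The median r over members was 0.68, 34 members were above 0.8 and 14 below 0, over 9 points in which 3 libraries of 1 line stand apart.

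**Figure D3:**
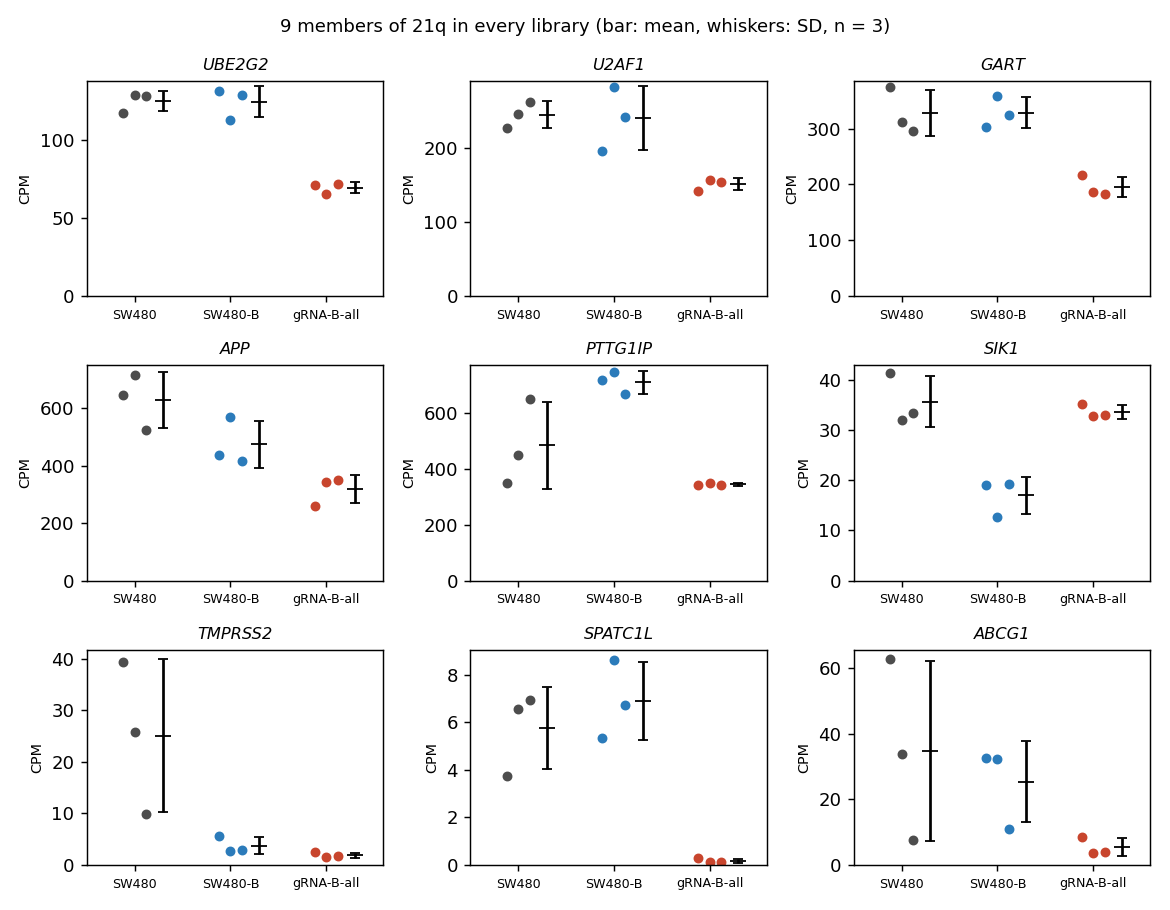
CPM of 9 members (y axes from 0) in each library of the 3 lines (x axes), with the mean and SD of 3 libraries beside the points. In UBE2G2 the SW480-gRNA-B-all libraries lie between 65.2 and 71.8 CPM and the 6 others between 113 and 131 CPM, SIK1 is lowest in SW480-B, and ABCG1 spreads over its SW480 libraries from 7.67 to 62.7 CPM.

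Not all members were lower in SW480-gRNA-B-all. Log2 fold changes were above 0 for 16 members against SW480, for 13 against SW480-B, and for 9 in both, namely ADARB1, BTG3, ICOSLG, ITGB2, PDE9A, RIPPLY3, RSPH1, SIM2 and SYNJ1, none of which was called by edgeR's quasi-likelihood test (at an unadjusted p under 0.05 there was 1 higher member against SW480 and 2 against SW480-B, and DESeq2 called PDE9A against SW480 and SIK1 against SW480-B). PDE9A, a cyclic GMP phosphodiesterase named after its values were seen, stood at 2.72, 8.24 and 9.42 CPM in SW480, 14.7, 24.02 and 18.8 CPM in SW480-B and 26.2, 22.4 and 20.8 CPM in SW480-gRNA-B-all, above SW480 in both BASP1 lines. Spread was smallest over the 9 libraries, among the 97 members with a mean of 10 CPM or more, in IL10RB, CRYZL1, RWDD2B, SLX9 and SYNJ1, and largest in CBR3, B3GALT5, TMPRSS2, ABCG1 and TMPRSS3. The SD of log2(CPM + 1) among them ran from 0.19 to 1.77, with a median of 0.42. At the border of the rule, the unscaled CPM that 3 libraries reached was 1.00 for RSPH1, 1.27 for TMPRSS15 and 1.54 for RIPPLY3, the 3 members just inside, and 0.991 for OLIG1, 0.693 for FAM3B and 0.618 for FTCD, the 3 genes just outside.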

How the data were processed

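RNA-seq of 9 libraries, 3 per line, was analysed. The authors deposited a table of read counts per Ensembl gene, whose counter and strand setting are not given in the sources used here, and coverage along transcripts relative to each transcript's mean, made with Picard per the file headers, with STAR alignment to GRCh37. Of 63677 identifiers, 55665 matched GENCODE on GRCh37, with 99.3 to 99.4% of counts, and reads in no feature were 5.22 to 9.93%. Coverage of the first 20 over the last 20 of the transcript positions was 0.838 to 0.892.

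Members and lists were chosen with earlier results of these data known. CPM were scaled by TMM over the 9 libraries, and membership used unscaled CPM. Each comparison was fitted on its 6 libraries in edgeR 4.0.16 (R 4.3.3) with filterByExpr (least count 10, least total 15), TMM, a robust quasi-likelihood fit and Benjamini-Hochberg adjustment over all genes tested, called at an adjusted p under 0.05. DESeq2 1.42.0 was the other tool, and the pipeline was tested on simulated data. Intervals and floors cover counting error only. Same-numbered libraries of SW480-B and SW480 had correlated deviations from their line means over 15720 genes (r = 0.31, 0.45 and 0.40), so they were read as pairs, and a fit with the replicate block was tried.

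Named members were, by rule, those with the largest called changes, the highest level, the largest and smallest spread, the highest likeness to the other members, up to 3 per list and direction, the first and last on the arm, those at the border of the rule, and 21q genes known from textbooks. LTN1, DOP1B and others of the 14 members called lower in both comparisons were named after their values were seen, as were the members above 0 and the non-coding genes.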

Additional observations from a re-analysis of the deposited data

Results flagged for a closer look

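In 17 of the 51 members named by rule and tested, the difference between the 2 BASP1 lines itself passed the edgeR quasi-likelihood test, Benjamini-Hochberg adjusted. Most of them were named for calls or patterns that rest on the same SW480-gRNA-B-all libraries, so nothing is read from their number beside the 8.76% of all genes called. They are among the 36 members called lower and the 1 called higher in that comparison. The log2 fold change of SW480-gRNA-B-all against SW480-B was -6.91 for MAP3K7CL, -5.42 for SPATC1L, -2.24 for ABCG1, -1.92 for LSS, -1.80 for MRPS6, -1.64 for HSPA13, -1.57 for PCBP3, -1.53 for USP25, -1.36 for ETS2, -1.19 for CFAP410 and -1.04 for PTTG1IP. Smaller falls were those of NRIP1 (-0.85), UBE2G2 (-0.84), GART (-0.75), NDUFV3 (-0.74) and PRMT2 (-0.63), and SIK1 alone rose (0.98). The values of MAP3K7CL and SPATC1L are fitted values of genes near 0 counts in SW480-gRNA-B-all, which depend on the prior count and are no measure of the size. Values in each library are given above.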

How the results depend on the processing

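For SW480-gRNA-B-all against SW480, members called numbered 49 with DESeq2, beside 15.6% of all genes, and 14 with a change above 2-fold also required. They numbered 3 with SW480-gRNA-B-all libraries 2 and 3 summed, beside 0.577%, and 0 to 48 with 1 library left out, beside 0.0485 to 20.9%. For SW480-B against SW480 there were 5 with no filter, 5 with all 9 libraries in 1 fit, 8 with DESeq2, beside 2.46, 2.93 and 5.64% of all genes, and 0 to 10 with 1 library left out, beside 0 to 5.48%, and 0 over the members at 1 CPM in every line, chosen after seeing the data. For SW480-gRNA-B-all against SW480-B there were 22 with all 9 libraries in 1 fit, beside 4.56%, 19 with a change above 2-fold also required, 9 with the pair summed, beside 2.74%, and 9 to 48 with 1 library left out, beside 2.58 to 14.1%. The 2-fold rule is stricter by construction, and otherwise the cause was not tested. For that rule no share of all genes is given, so its counts are not read as a result about the members. The replicate block gave 28, 4 and 41 members for the 3 comparisons, beside 8.37, 1.99 and 12.5% of all genes, and 22 of the 28 were called without it too. For the pairs of lines with SW480-gRNA-B-all, same-numbered libraries correlated at 0.33, -0.00 and 0.32 with SW480 and 0.29, -0.10 and 0.31 with SW480-B. Replicates 1 and 3 thus correlated across lines and replicate 2 did not. SW480-gRNA-B-all replicate 2 correlated instead with replicate 3 of SW480 (0.33) and of SW480-B (0.38). The main fits hold no term for what these libraries share, and its cause was not tested.

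The median log2 fold change against SW480 moved to -0.57 with library totals, -0.57 when centred on autosomal genes off chromosome 21, -0.55 as a difference of line means, -0.41 after a loess trend on GC content and length was subtracted, and -0.64 to -0.55 with 1 library left out. Against SW480-B it moved to -0.51 with library totals. The cause was not tested. In windows of 5 Mb, SW480-gRNA-B-all was lowest in 85.7% of windows, the exception holding TMPRSS15 alone. The gap of the arm between SW480-gRNA-B-all and the 6 others moved by less than the spread between replicates under every alternative run. With genes at 0 counts set to their bound, an alternative chosen after seeing the data, the medians were -0.65, 0.02 and -0.58. Counting ratios of members near 0 without single libraries are given with their values. Across named members and alternatives, 1705 values kept their direction and side of the threshold, 221 lost the call, 57 gained one, 71 that were not called changed sign and no called value reversed. Depth limits members near 0, whose fitted fold changes are not exact.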
